A study of Arabidopsis thaliana with 24 samples.

Results

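Raffinose, proline and sucrose are small solutes that plants store when water or cold limits growth, and 9 Arabidopsis genes for their synthesis and breakdown were followed here out of 33602 genes counted. They were listed by name for their role, with no threshold on their values, and with earlier results of these data known. They are GOLS1, GOLS2 and GOLS3 (galactinol synthases), RS5 (raffinose synthase), P5CS1 and P5CS2 (delta-1-pyrroline-5-carboxylate synthetases), ERD5 (proline dehydrogenase), and SPS1F and SPS4F (sucrose-phosphate synthases). RNA was measured by sequencing in whole seedlings of Col-0, the laboratory reference accession, and IP-Svi-0, a natural accession that the submitters study for early flowering. Seedlings of each grew on half-strength MS medium, were stratified for 3 days, and were collected 23 days after transfer to 10 °C, 12 days after transfer to 16 °C, 8 days after transfer to 23 °C or 7 days after transfer to 27 °C. Each of the 8 groups had 3 libraries, 24 in all, and no gene was altered in either accession. Temperature and age changed together and cannot be told apart. The labels do not say whether the libraries of a group came from separate cultures, so p-values measure the spread between these libraries, which may be technical.

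Galactinol synthase joins a galactosyl residue from UDP-galactose to myo-inositol, and raffinose synthase moves that residue from galactinol to sucrose. In vegetative tissue GOLS3 is known as a cold-responsive gene downstream of the CBF transcription factors, while GOLS1 and GOLS2 are known for drought, salt and heat. P5CS makes the rate-limiting step of proline synthesis from glutamate, and ERD5, in mitochondria, starts proline breakdown. Sucrose-phosphate synthase makes sucrose 6-phosphate from UDP-glucose and fructose 6-phosphate in the cytosol.

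The sequences upstream of 5 members are shown because their RNA moved most clearly with temperature or accession, or because they hold several of the motifs named for these pathways. They are the 300 bases before the annotated gene start, in the direction of transcription, read from the RefSeq TAIR10.1 assembly of Col-0, and the sequence of IP-Svi-0 was not used here. Capitals mark 4 motifs searched on both strands: CCGAC, the core of the CBF-binding CRT/DRE element; ACGTG, the core of the abscisic acid response element; GAANNTTC, a heat shock element; and ACTCAT, the proline- and hypoosmolarity-responsive element described in the promoter of ERD5. In CACGTG the ACGTG core was counted once on each strand. GOLS2 was read from chr1:21207237-21207536 (+ strand), RS5 from chr5:16161149-16161448 (+), P5CS2 from chr3:20629296-20629595 (-), ERD5 from chr3:12451557-12451856 (-) and SPS4F from chr4:6313614-6313913 (+).
GOLS2: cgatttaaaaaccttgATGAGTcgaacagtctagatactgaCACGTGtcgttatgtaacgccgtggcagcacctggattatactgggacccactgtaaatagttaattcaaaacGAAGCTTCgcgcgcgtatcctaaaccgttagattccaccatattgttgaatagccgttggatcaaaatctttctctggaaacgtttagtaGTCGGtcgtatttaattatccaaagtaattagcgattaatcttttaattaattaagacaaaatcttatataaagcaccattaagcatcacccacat
RS5: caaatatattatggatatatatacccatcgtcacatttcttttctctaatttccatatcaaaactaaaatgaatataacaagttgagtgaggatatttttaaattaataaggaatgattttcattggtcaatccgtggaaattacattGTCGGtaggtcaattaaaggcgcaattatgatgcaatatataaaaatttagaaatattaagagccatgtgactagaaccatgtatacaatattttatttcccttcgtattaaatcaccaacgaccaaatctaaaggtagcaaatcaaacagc
P5CS2: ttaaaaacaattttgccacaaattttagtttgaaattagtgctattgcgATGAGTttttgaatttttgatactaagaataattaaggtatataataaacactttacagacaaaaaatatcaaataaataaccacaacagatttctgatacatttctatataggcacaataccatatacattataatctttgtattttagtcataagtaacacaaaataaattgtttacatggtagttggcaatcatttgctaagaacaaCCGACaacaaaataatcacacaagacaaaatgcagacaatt
ERD5: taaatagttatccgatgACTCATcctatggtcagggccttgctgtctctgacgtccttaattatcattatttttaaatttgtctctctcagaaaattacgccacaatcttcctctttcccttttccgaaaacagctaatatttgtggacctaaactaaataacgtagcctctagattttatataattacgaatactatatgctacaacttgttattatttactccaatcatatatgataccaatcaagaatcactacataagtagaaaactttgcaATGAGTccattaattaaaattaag
SPS4F: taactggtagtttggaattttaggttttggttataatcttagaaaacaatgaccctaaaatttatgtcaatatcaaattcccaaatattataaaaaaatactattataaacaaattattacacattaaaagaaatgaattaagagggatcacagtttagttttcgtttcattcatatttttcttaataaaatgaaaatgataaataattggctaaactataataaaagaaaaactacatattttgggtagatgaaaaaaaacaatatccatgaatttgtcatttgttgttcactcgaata

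CCGAC lay in 4 of the 9 upstream windows, those of GOLS2, GOLS3, RS5 and P5CS2. It lay in 13.9% of 27443 windows of the same length upstream of annotated nuclear protein-coding genes. GOLS3 held it at 2 places and the other three at 1. ACGTG lay in the windows of GOLS1, GOLS2 and GOLS3, and in 25.6% of all windows. ACTCAT lay in those of ERD5, GOLS2 and P5CS2, at 2 places in ERD5, against 14.8% of all windows. GAANNTTC lay in those of GOLS1, GOLS2 and SPS1F, against 11.5%. No motif of the 4 was found in the windows of P5CS1 and SPS4F. A match describes these letters only.

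The counts were shallow. Each library had 338784 to 870567 counts at genes, which was 1.41 to 3.61% of its reads, and which strand was counted is not given in the sources used. Counts at a gene may therefore come from the opposite strand. Exons of a gene on the other strand covered 43 bases of GOLS1, 85 of P5CS1, 32 of P5CS2 and 166 of SPS4F, and none of the other members. The share of counts at genes without such an overlap was 35.9 to 44.0% in Col-0 at 10 °C and 43.3 to 52.3% in IP-Svi-0 at 10 °C, so a fit with this share as a covariate is given where it ended a member's call. Shoot markers (5 genes) summed to 12400 to 46700 CPM per library and root markers (5 genes) to 32.3 to 157 CPM, so RNA of both tissues was present. Seed markers (8 genes) summed to 15.4 to 1190 CPM. In RNA of whole seedlings, fewer cells of a type and less RNA per cell cannot be told apart. Reads of both accessions were processed with TAIR10, an assembly of Col-0. Whether sequence differences of IP-Svi-0 changed its counts at any gene was not tested.

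Per kilobase of exon, the level over all 24 libraries was highest for SPS4F, at 47.4 CPM per kilobase, and then for P5CS1 at 39.4, SPS1F at 28.0, P5CS2 at 14.3, GOLS1 at 12.0, ERD5 at 9.71, RS5 at 4.55, GOLS2 at 3.48 and GOLS3 at 0.535. CPM, counts per 1e6 counts, use the effective library size. The 7 leading genes passed the filter on low counts, with 207 counts (RS5) to 3266 counts (SPS4F) over all libraries. GOLS2 had 57 counts and GOLS3 had 13, and neither was tested in the edgeR fit. The longest identical exon stretch was 53 bases between P5CS1 and P5CS2, 26 between GOLS2 and GOLS3 and 18 between SPS1F and SPS4F.

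**Figure D1:**
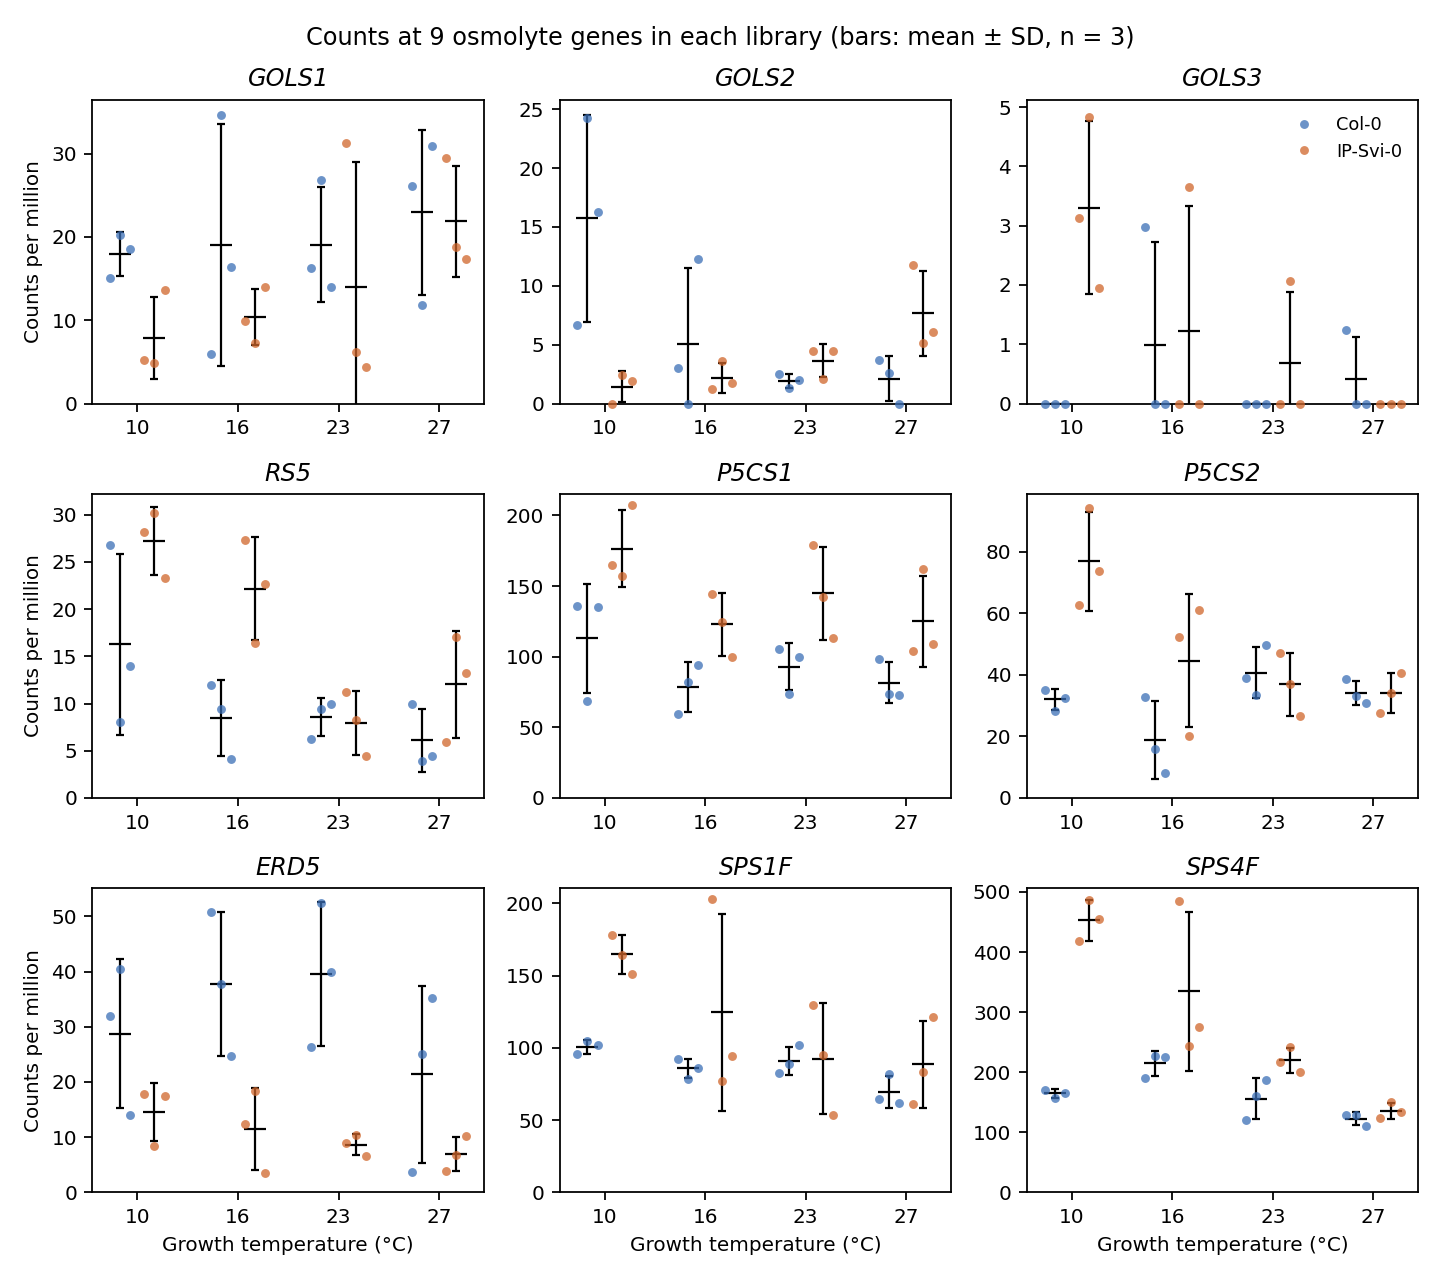
CPM (y axis) of the 9 genes in each library (points) at each growth temperature (x axis, °C) in Col-0 (blue) and IP-Svi-0 (orange), with the mean and SD of 3 libraries in black. SPS4F in IP-Svi-0 goes from 418 to 486 CPM at 10 °C down to 124 to 150 CPM at 27 °C, and GOLS2 and GOLS3 stay near the level of a few counts.

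Averaged over the 4 temperatures, 6 of the 7 tested genes differed between the accessions, 5 higher and 1 lower in IP-Svi-0. Over all 10097 tested genes 32.7% were called in this comparison, 16% higher and 16.7% lower. Genes were called at a Benjamini-Hochberg adjusted p under 0.05 in edgeR's quasi-likelihood test, adjusted over all tested genes, as in every comparison that follows. The median log2 difference of the 7 was 0.57, against 0.02 for all genes tested. The genes for making proline and sucrose and for raffinose synthase were higher, and the gene for breaking proline down was lower. With each library's share of counts at genes with no opposite-strand exon as a covariate, 3 of the 7 were called, as RS5, P5CS2 and SPS1F lost their calls (adjusted p 0.264, 0.126 and 0.267). RS5 and SPS1F also lost them with DESeq2 (adjusted p 0.112 and 0.0796). The comparison within each temperature called 2 of the 7 at 10 °C, 1 at 16 °C, 1 at 23 °C and 0 at 27 °C, where 24%, 8.22%, 7.93% and 8.04% of all tested genes were called.

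**Figure D2:**
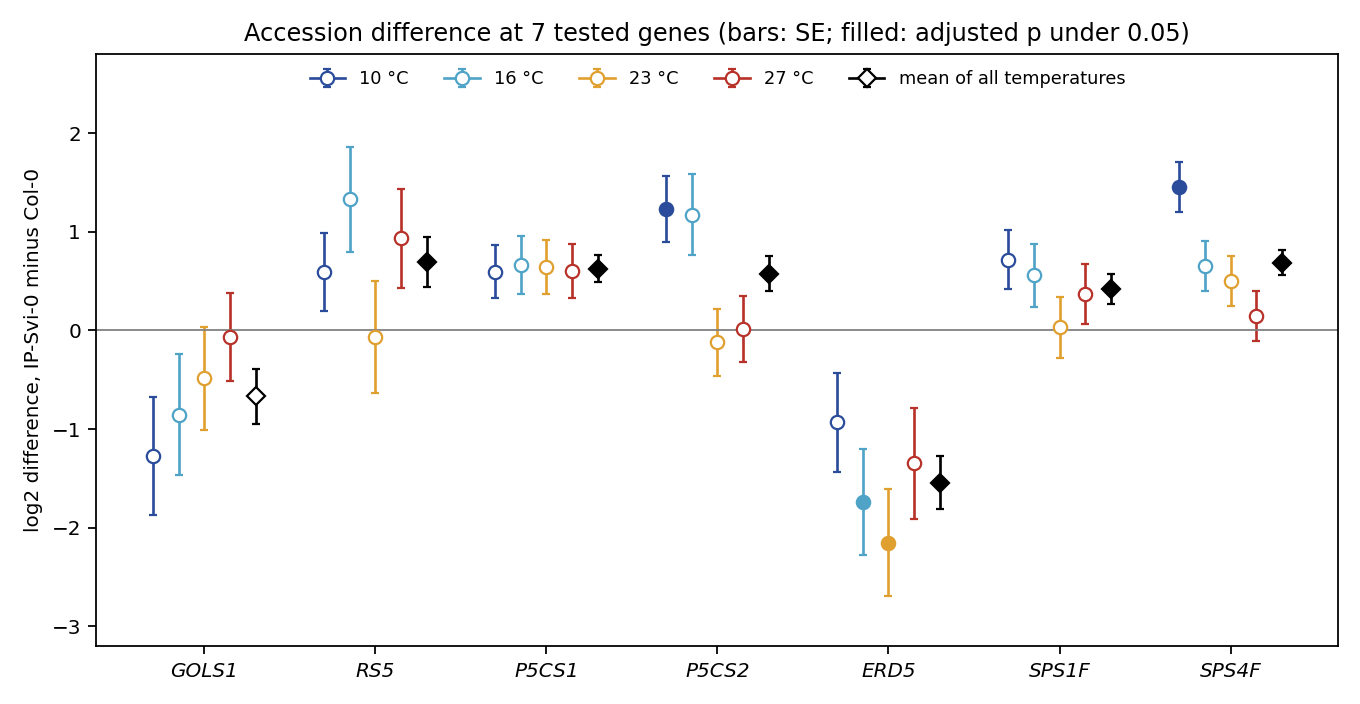
Fitted log2 difference of IP-Svi-0 minus Col-0 (y axis) for the 7 tested genes (x axis) at each temperature (coloured circles) and over all temperatures (black diamonds), with SE bars and filled symbols where the adjusted p was under 0.05. ERD5 lies below 0 at every temperature and P5CS1 above 0 at every temperature, and P5CS2 and SPS4F are furthest above 0 at 10 °C.

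Of the raffinose genes, RS5 (AT5G40390, chr5:16161449-16165453, + strand), named SIP1 in RefSeq, carries the last step. In Col-0 it stood at 26.8, 8.08 and 13.9 CPM at 10 °C, 11.9, 9.46 and 4.1 at 16 °C, 6.27, 9.41 and 9.97 at 23 °C, and 9.94, 3.96 and 4.41 at 27 °C. In IP-Svi-0 it stood at 28.2, 30.2 and 23.3 CPM at 10 °C, 27.4, 16.5 and 22.7 at 16 °C, 11.2, 8.26 and 4.44 at 23 °C, and 5.90, 17.0 and 13.2 at 27 °C. The IP-Svi-0 libraries at 10 and 16 °C were all above those of that accession at 23 °C, as 15.6% and 7.93% of tested genes were at 10 and 16 °C, and in Col-0 1 library at 10 °C stood well above the other two. In IP-Svi-0, RS5 rose at 10 against 23 °C by 1.77 (log2, SE 0.459), 3.40-fold, with an adjusted p of 0.00672. At 16 against 23 °C its log2 difference there was 1.48 (SE 0.48), with an adjusted p of 0.123. In Col-0 the difference at 10 against 23 °C was 1.11 (SE 0.483, adjusted p 0.184). The difference between the 2 responses to 10 °C was 0.66 (SE 0.696, adjusted p 0.625), so the response was not shown to differ between the accessions. Averaged over the temperatures RS5 was 1.62-fold higher in IP-Svi-0, a log2 difference of 0.69 (SE 0.256) with an adjusted p of 0.0341. That call was lost with the overlap share as covariate (log2 difference 0.43, adjusted p 0.264), with DESeq2 (adjusted p 0.112) and without any 1 of 11 libraries (log2 difference 0.62 to 0.68, adjusted p 0.0531 to 0.0913), namely Col-0 10 °C replicates 2 and 3, 16 °C replicate 3, 23 °C replicate 1 and 27 °C replicates 2 and 3, and IP-Svi-0 16 °C replicate 1, 23 °C replicates 1 and 2 and 27 °C replicates 2 and 3. With the covariate the rise at 10 against 23 °C in IP-Svi-0 was 1.33, with an adjusted p of 0.0731.

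GOLS1 (AT2G47180, chr2:19368798-19370478, - strand) makes galactinol, the donor for RS5. In Col-0 its libraries stood at 15.1, 20.2 and 18.6 CPM at 10 °C, 5.97, 34.7 and 16.4 at 16 °C, 16.3, 26.9 and 13.9 at 23 °C, and 26.1, 11.9 and 30.9 at 27 °C. In IP-Svi-0 they stood at 5.21, 4.84 and 13.6 CPM at 10 °C, 9.96, 7.32 and 14 at 16 °C, 31.3, 6.20 and 4.44 at 23 °C, and 29.5, 18.8 and 17.3 at 27 °C. At 10 °C every IP-Svi-0 library lay below every Col-0 library, as 19.3% of all tested genes did, and at the other temperatures the groups overlapped. The log2 difference at 10 °C was -1.27 (SE 0.6, adjusted p 0.12), and over all temperatures it was -0.67 (SE 0.275) with an adjusted p of 0.0575, so GOLS1 was not called. It was called without any 1 of 7 libraries (log2 difference -1.0 to -0.71, adjusted p 0.00537 to 0.0469), which were Col-0 16 °C replicate 1, 23 °C replicate 3 and 27 °C replicate 2, and IP-Svi-0 10 °C replicate 3, 16 °C replicate 3, 23 °C replicate 1 and 27 °C replicate 1. It was also called with no filter (adjusted p 0.0419), with a filter of 1 CPM (0.0405) and with organelle genes left out (0.0413).

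GOLS2 (AT1G56600, chr1:21207537-21209635, + strand) had few counts, and most of those in Col-0 came from the cold. Its counts in Col-0 were 4, 6 and 7 at 10 °C, 1, 0 and 3 at 16 °C, 2, 1 and 1 at 23 °C, and 3, 2 and 0 at 27 °C. In IP-Svi-0 they were 0, 2 and 1 at 10 °C, 1, 2 and 1 at 16 °C, 2, 1 and 2 at 23 °C, and 6, 3 and 6 at 27 °C. The highest group was thus Col-0 at 10 °C, and within IP-Svi-0 it was 27 °C. With no filter on low counts, edgeR gave a log2 difference between the accessions at 10 °C of -3.14 (adjusted p 0.00249) and a log2 rise in Col-0 at 10 against 23 °C of 2.66 (adjusted p 0.0246), both fitted on these few counts. DESeq2 gave -3.46 (adjusted p 0.0173) for the first and no adjusted p for the second.

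GOLS3 (AT1G09350, chr1:3019639-3021443, + strand), the galactinol synthase gene known for its cold response, was close to undetected. Its counts in IP-Svi-0 were 3, 4 and 1 at 10 °C, 0, 2 and 0 at 16 °C, 0, 1 and 0 at 23 °C and 0 in each library at 27 °C. In Col-0 it had 1 count at 16 °C, 1 at 27 °C and none at 10 or 23 °C. Over the 3 Col-0 libraries at 10 °C together, a count of 0 allows up to 2.36 CPM (3 counts). The IP-Svi-0 group at 10 °C had 8 counts and a mean of 3.30 CPM, with single libraries at 1.94 to 4.84 CPM. Without a filter the accession difference at 10 °C had an adjusted p of 0.157. No difference in GOLS3 was shown at this depth.

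Other genes of the raffinose pathway were taken from a list of 20, of which 10 passed the filter. Between the accessions 3 of the 10 were called at 10 °C, all higher in IP-Svi-0. Of all tested genes 9.59% were called higher there and 24% in either direction. The list's median log2 difference at 10 °C was 0.47. DIN10, annotated as a raffinose synthase family member and known as a gene induced by darkness and sugar starvation, fell in Col-0 at 10 °C, and 82 of its exon bases lie opposite AT5G20260. Its Col-0 libraries stood at 15.1, 0 and 2.33 CPM at 10 °C and at 74.0, 109 and 102 CPM at 23 °C. Its IP-Svi-0 libraries stood at 93.8, 118 and 105 CPM at 10 °C and at 152, 105 and 73.2 CPM at 23 °C. DIN10 thus fell by 3.60 (log2, SE 0.575, adjusted p 4.79e-05) in Col-0 and differed by -0.06 (SE 0.378, adjusted p 0.948) in IP-Svi-0. The accession difference was 3.76 (SE 0.568, adjusted p 4e-06) at 10 °C and 2.10 (adjusted p 0.00314) at 16 °C, and the latter was 1.03 (adjusted p 0.222) without IP-Svi-0 16 °C replicate 1.

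MIPS1, which makes the inositol phosphate from which galactinol's myo-inositol comes, stood at 219.6, 194 and 205 CPM in Col-0 at 10 °C and at 217, 222 and 259 CPM at 23 °C. In IP-Svi-0 it stood at 334, 360.4 and 417 CPM at 10 °C and at 163, 136 and 138 CPM at 23 °C. It rose in IP-Svi-0 at 10 against 23 °C by 1.34 (log2, SE 0.248, adjusted p 0.000203), 2.54-fold, against -0.17 (SE 0.246, adjusted p 0.768) in Col-0. AT3G56310, an alpha-galactosidase gene (an enzyme type that removes galactose from raffinose), was higher in IP-Svi-0 at 10 °C by 2.18 (adjusted p 0.0031), which was 1.86 (adjusted p 0.0534) with the covariate. AGAL1, another alpha-galactosidase gene, rose in IP-Svi-0 at 10 against 23 °C by 1.65 (adjusted p 0.0282), and this call was lost with the covariate (adjusted p 0.0917), with DESeq2 (0.0692) and without any 1 of the libraries IP-Svi-0 10 °C replicates 1 and 2 and 23 °C replicates 2 and 3 (log2 1.28 to 1.61, adjusted p 0.0712 to 0.138).

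Of the proline genes, P5CS1 (AT2G39800, chr2:16598072-16603319, - strand) is the stress-induced synthetase. In Col-0 it stood at 136, 68.7 and 135 CPM at 10 °C, 59.7, 81.9 and 94.3 at 16 °C, 105, 73.9 and 99.7 at 23 °C, and 98.1, 73.9 and 72.7 at 27 °C. In IP-Svi-0 it stood at 165, 157 and 208 CPM at 10 °C, 144, 124 and 99.6 at 16 °C, 179, 142 and 113 at 23 °C, and 104, 162 and 109 at 27 °C. At each temperature all 3 IP-Svi-0 libraries lay above all 3 Col-0 libraries. Of all tested genes 20.1% lay so at 10 °C, 10.8% at 16 °C, 13.4% at 23 °C and 11.3% at 27 °C. The log2 differences were 0.59, 0.66, 0.64 and 0.60 from the coldest to the warmest (SE 0.268 to 0.295), with adjusted p between 0.104 and 0.207, so none was called at a single temperature. Over all 4 temperatures P5CS1 was 1.54-fold higher in IP-Svi-0, a log2 difference of 0.62 (SE 0.138) with an adjusted p of 0.000519. This call held in each alternative fit. The response to 10 against 23 °C was 0.33 (SE 0.277, adjusted p 0.555) in Col-0 and 0.28 (SE 0.262, adjusted p 0.526) in IP-Svi-0.

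P5CS2 (AT3G55610, chr3:20624020-20629295, - strand) is the second synthetase gene, known from dividing tissue. In Col-0 it stood at 35.2, 28.3 and 32.6 CPM at 10 °C, 32.8, 15.8 and 8.21 at 16 °C, 38.9, 33.6 and 49.8 at 23 °C, and 38.5, 33.0 and 30.9 at 27 °C. In IP-Svi-0 it stood at 62.6, 94.3 and 73.8 CPM at 10 °C, 52.3, 20.1 and 61.2 at 16 °C, 47.0, 37.2 and 26.6 at 23 °C, and 27.5, 34.1 and 40.7 at 27 °C. Every IP-Svi-0 library at 10 °C lay above every Col-0 library at 10 °C, as for 20.1% of tested genes. Each also lay above every IP-Svi-0 library at 23 °C, as for 15.6%. The lowest of them, at 62.6 CPM, was close to the 61.2 CPM of an IP-Svi-0 library at 16 °C. At 10 °C P5CS2 was 2.34-fold higher in IP-Svi-0, a log2 difference of 1.23 (SE 0.334, adjusted p 0.00628), where 9.59% of tested genes were called higher. It rose in IP-Svi-0 at 10 against 23 °C by 1.05 (log2, SE 0.32, adjusted p 0.0205), against -0.30 (SE 0.357, adjusted p 0.706) in Col-0. The difference between these responses was 1.35 (SE 0.48) with an adjusted p of 0.0814. At 23 and 27 °C the accession differences were -0.12 (SE 0.343) and 0.02 (SE 0.332). Over all temperatures it was 0.57 (SE 0.18, adjusted p 0.0129).

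All 3 calls of P5CS2 were lost with the covariate, which gave 0.84 (adjusted p 0.175) at 10 °C, 0.41 (adjusted p 0.126) over all temperatures and 0.81 (adjusted p 0.112) between 10 and 23 °C in IP-Svi-0. The last was also lost without IP-Svi-0 10 °C replicate 2 or without 23 °C replicate 3 (log2 0.87 and 0.94, adjusted p 0.128 and 0.0849). At 16 °C, where it was not called (log2 difference 1.17, SE 0.414, adjusted p 0.0738), it was called without Col-0 replicate 1 (1.86, adjusted p 0.0205), without IP-Svi-0 replicate 2 (1.45, adjusted p 0.0126) and with a filter of 1 CPM (1.28, adjusted p 0.0467).

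ERD5 (AT3G30775, chr3:12448636-12451556, - strand), the first enzyme of proline breakdown, was lower in IP-Svi-0. In Col-0 it stood at 31.9, 40.4 and 13.9 CPM at 10 °C, 50.7, 37.8 and 24.6 at 16 °C, 26.3, 52.4 and 39.9 at 23 °C, and 3.73, 25.1 and 35.3 at 27 °C. In IP-Svi-0 it stood at 17.7, 8.46 and 17.5 CPM at 10 °C, 12.4, 18.3 and 3.50 at 16 °C, 8.95, 10.3 and 6.66 at 23 °C, and 3.93, 6.82 and 10.2 at 27 °C. At 16 and 23 °C every IP-Svi-0 library lay below every Col-0 library, as 10.6% and 13.8% of tested genes did. At 10 and 27 °C a low Col-0 library made the groups overlap. Over all temperatures ERD5 was 2.92-fold lower in IP-Svi-0, a log2 difference of -1.54 (SE 0.27) with an adjusted p of 1.98e-05, and the call held in each alternative fit. The difference was -0.93 (SE 0.504, adjusted p 0.178) at 10 °C, -1.74 (SE 0.536, adjusted p 0.0364) at 16 °C, -2.15 (SE 0.542, adjusted p 0.00643) at 23 °C and -1.35 (SE 0.563, adjusted p 0.161) at 27 °C. Of all tested genes 5.82% were called lower at 16 °C and 4.88% at 23 °C. The 3 differences between the accessions' responses, each against 23 °C, had adjusted p from 0.358 to 1, so the temperatures were not shown to differ.

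Single libraries changed the call of ERD5 at 16, 23 and 27 °C, with 271 counts for this gene in all. The call at 16 °C was lost with the covariate (-1.78, adjusted p 0.0801), with DESeq2 (adjusted p 0.0925) and without Col-0 replicate 1 or 2 or IP-Svi-0 replicate 1 or 3 (-1.86 to -1.40, adjusted p 0.0768 to 0.149). The call at 23 °C was lost without Col-0 replicate 2 (-1.89, adjusted p 0.0524). At 27 °C ERD5 was called without Col-0 replicate 1 (-1.91, adjusted p 0.0128), the library with 3 counts.

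The counts of P5CS1 and P5CS2 together, divided by those of ERD5 in the same library, set synthesis beside breakdown without any scaling between libraries. In Col-0 the lowest library had 1.82, the median of 12 was 3.96 and the highest was 36.7. In IP-Svi-0 the lowest had 7.90, the median was 19.2 and the highest 46.0. The ratio of 46.0 rests on 2 ERD5 counts, and that of 36.7 on 3. With the counts of a group pooled, the ratio was 2.49 to 6.26 in the Col-0 groups. In the IP-Svi-0 groups it was 14.95 to 20.92. At 16 and 23 °C and at 10 °C all IP-Svi-0 ratios were above all Col-0 ratios of that temperature, with 12.8 to 29.7 against 2.40 to 12.0 at 10 °C, and at 27 °C they overlapped through the single Col-0 library at 36.7. The ratio is a description, since it follows from the 3 genes tested above, and counts per gene were not divided by length. How many other gene ratios separate the groups in this way was not counted.

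**Figure D3:**
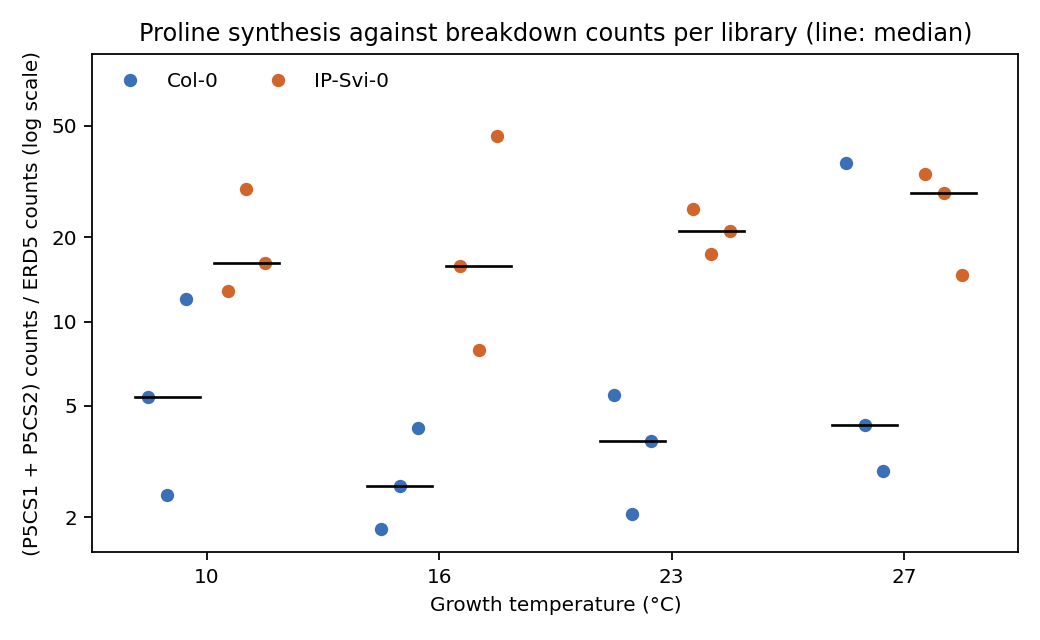
Ratio of P5CS1 plus P5CS2 counts to ERD5 counts (y axis, log scale) in each library (points) at each growth temperature (x axis, °C), with the median of 3 libraries as a line. The medians lie between 2.58 and 5.37 in Col-0 (blue) and between 15.8 and 28.8 in IP-Svi-0 (orange).

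Of the 7 other proline genes, 3 passed the filter. P5CDH (named ALDH12A1 in RefSeq), which carries out the second step of proline breakdown, was lower in IP-Svi-0 over all temperatures by -0.71 (log2, SE 0.156, adjusted p 0.000503) and at 27 °C by -1.0 (SE 0.296, adjusted p 0.0245). Its exons overlap 811 bases of SRO5 on the other strand. As the counted strand is not given, counts of P5CDH over these bases may come from SRO5 RNA. P5CDH and SRO5 cannot be told apart there. The call at 27 °C was lost with DESeq2 (adjusted p 0.0707) and without Col-0 27 °C replicate 1 or 3 or IP-Svi-0 27 °C replicate 1 or 3 (-1.01 to -0.80, adjusted p 0.0684 to 0.19). At 27 °C 0 of the 7 members were called by edgeR and by DESeq2, with 2 at an unadjusted p under 0.05 and 8.04% of all tested genes called.

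Of the sucrose genes, SPS4F (AT4G10120, chr4:6313914-6320094, + strand) is a leaf form of the enzyme and had the most counts of the 9. In Col-0 it stood at 171, 158 and 165 CPM at 10 °C, 191, 227 and 226 at 16 °C, 120.4, 159.9 and 187 at 23 °C, and 129, 128 and 110.2 at 27 °C. In IP-Svi-0 it stood at 418, 486 and 454 CPM at 10 °C, 485, 243 and 274 at 16 °C, 217, 242 and 199.7 at 23 °C, and 124, 150.0 and 133 at 27 °C. In IP-Svi-0 the means went down from the coldest to the warmest group, with 453 ± 34, 334 ± 132, 219 ± 21.1 and 136 ± 13.2 CPM (SD, n = 3). Libraries of neighbouring groups overlapped between 10 and 16 °C, through the 16 °C library at 485 CPM. The groups at 16 and 23 °C nearly touched, with the lowest 16 °C library at 243.3 and the highest 23 °C library at 241.7 CPM. Of tested genes 7.93% were likewise higher in each library at 16 than at 23 °C, and 7.28% lower at 27 than at 23 °C. SPS4F was called in neither comparison (log2 0.61, adjusted p 0.228, and log2 -0.69, adjusted p 0.562). In Col-0 the 16 °C group was the highest, at 214 ± 20.4 CPM.

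At 10 °C SPS4F was 2.74-fold higher in IP-Svi-0, a log2 difference of 1.46 (SE 0.254, adjusted p 4.59e-05). The difference was 0.65 (SE 0.253, adjusted p 0.113) at 16 °C, 0.50 (SE 0.253, adjusted p 0.268) at 23 °C and 0.14 (SE 0.256, adjusted p 0.842) at 27 °C. Over all temperatures it was 0.69 (SE 0.127, adjusted p 4.63e-05). In IP-Svi-0 SPS4F rose at 10 against 23 °C by 1.04 (log2, SE 0.247, adjusted p 0.00308), 2.06-fold, against 0.09 (SE 0.258, adjusted p 0.896) in Col-0. The difference between these responses was 0.95 (SE 0.356) with an adjusted p of 0.0979. It was called with DESeq2 (0.98, adjusted p 0.0333) and without IP-Svi-0 16 °C replicate 1 (1.0, adjusted p 0.0473). The calls at 10 °C, over all temperatures and at 10 against 23 °C held in each alternative fit.

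SPS1F (AT5G20280, chr5:6844712-6850237, - strand), the most widely expressed form, was highest in IP-Svi-0 at 10 °C. In Col-0 it stood at 95.6, 105 and 102 CPM at 10 °C, 92.5, 78.8 and 86.2 at 16 °C, 82.8, 88.7 and 102 at 23 °C, and 64.6, 81.8 and 61.7 at 27 °C. In IP-Svi-0 it stood at 178, 164 and 151 CPM at 10 °C, 203, 76.8 and 94.4 at 16 °C, 129.7, 95.0 and 53.2 at 23 °C, and 61.0, 83.5 and 121 at 27 °C. At 10 °C all IP-Svi-0 libraries lay above all Col-0 libraries, as they did for 20.1% of tested genes, and at the other temperatures the groups overlapped. The log2 difference at 10 °C was 0.72 (SE 0.301) with an adjusted p of 0.0792, and it was called without IP-Svi-0 16 °C replicate 1 (0.74, adjusted p 0.0297), with a filter of 1 CPM (adjusted p 0.04) and in a fit of the 2 groups alone (adjusted p 0.0339).

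Between 10 and 23 °C in IP-Svi-0, SPS1F differed by 0.83 (log2, SE 0.299) with an adjusted p of 0.0518. It was called without any 1 of 20 libraries (0.83 to 1.19, adjusted p 0.0126 to 0.0486), which are all except IP-Svi-0 10 °C replicates 1 and 2 and 23 °C replicates 2 and 3. It was also called with DESeq2 size factors, no filter, a filter of 1 CPM, organelle genes left out and the 2 groups alone (adjusted p 0.0195 to 0.0466). Over all temperatures it was higher in IP-Svi-0 by 0.42 (SE 0.155, adjusted p 0.0342). This call was lost with the covariate (0.26, adjusted p 0.267), with DESeq2 (adjusted p 0.0796) and without any 1 of 12 libraries (0.28 to 0.41, adjusted p 0.0513 to 0.134), namely Col-0 10 °C replicates 1 and 3, 16 °C replicate 2, 23 °C replicates 1 and 2 and 27 °C replicates 1 and 3, and IP-Svi-0 10 °C replicate 1, 16 °C replicate 1, 23 °C replicates 1 and 2 and 27 °C replicate 3.

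Beside the higher SPS4F and P5CS2 counts of IP-Svi-0 at 10 °C, shoot markers were also higher. The 5 shoot marker genes, all with counts, summed to 31400 to 46700 CPM in IP-Svi-0 at 10 °C and to 14200 to 22800 CPM in Col-0 at 10 °C. Of the 5, 4 had a log2 difference above 0 and 3 were called higher, where 9.59% of all tested genes were called higher and 24% in either direction. RBCS1A, the small subunit of Rubisco, differed by 1.84 (adjusted p 1.35e-05) and RCA, Rubisco activase, by 1.21 (adjusted p 0.00106). The 5 root markers summed to 62.6 to 96.7 CPM in IP-Svi-0 and to 32.3 to 37.2 CPM in Col-0 at 10 °C, with 1 of 2 tested called higher. That gene, PRP3, differed by 1.70 (adjusted p 0.0031) and lost its call with the covariate (adjusted p 0.0834). The 8 seed markers, of genes active in late seed development, summed to 27.2 to 151 CPM in IP-Svi-0 and to 80.8 to 191 CPM in Col-0 at 10 °C. Of 7 tested there, 1 was called lower, SESA3, a call that held in 25 of 31 alternative fits and not with DESeq2. At 27 °C the seed markers summed to 689 to 1190 CPM in IP-Svi-0 and to 15.4 to 93.7 CPM in Col-0. There 6 of 7 tested were called higher, CRU3 and EM1 most. Of all 10097 tested genes 251 were called higher there, and 8.04% in either direction. The part of these tissues in the results was not tested.

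Of the 18 other sucrose genes, 10 passed the filter. Of these, 2 were called higher in IP-Svi-0 at 10 °C, where 9.59% of all tested genes were called higher and 24% in either direction. CYFBP (named FBP in RefSeq), the cytosolic fructose-1,6-bisphosphatase upstream of sucrose-phosphate synthase, was higher there by 1.66 (log2, SE 0.289, adjusted p 4.26e-05) and over all temperatures by 1.10 (SE 0.148, adjusted p 1.47e-07). At 23 °C it was higher by 1.17 (adjusted p 0.00706), and that call was lost without Col-0 23 °C replicate 3 or IP-Svi-0 23 °C replicate 1 (1.0 and 1.02, adjusted p 0.0592). SPS2F, a further sucrose-phosphate synthase gene, was higher at 10 °C by 1.79 (adjusted p 0.0285), with 6 counts over the Col-0 libraries and 38 over those of IP-Svi-0. The SPS2F call was lost with the covariate (adjusted p 0.237), with DESeq2 (0.096) and without Col-0 10 °C replicate 2 or 3 or IP-Svi-0 10 °C replicate 2 or 3 (1.48 to 1.75, adjusted p 0.0508 to 0.139). AT2G35840, a sucrose-phosphatase gene for the step after sucrose-phosphate synthase, was higher over all temperatures by 0.68 (SE 0.145, adjusted p 0.000344), and 243 of its exon bases are shared with AT2G35850 on the same strand.

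In the response of IP-Svi-0 to 10 against 23 °C, 3 of the 7 members rose (RS5, P5CS2 and SPS4F) and none fell, where 5.77% of all tested genes rose and 15.8% were called in either direction. With the covariate 1 of the 7 was called, SPS4F, with an adjusted p of 0.0731 for RS5 and of 0.112 for P5CS2. The median log2 change of the 7 was 0.83, against -0.015 over all genes tested. Of the 10 sucrose genes tested beside them, CYFBP rose by 1.15 (adjusted p 0.00379) and UGP1, which makes UDP-glucose, by 1.06 (adjusted p 0.00542). UGP2, which makes the same product, fell by 1.42 (adjusted p 0.00213). SUS6, a sucrose synthase gene known from phloem, fell by 1.78 (adjusted p 0.0389), a call lost with the covariate (adjusted p 0.0931), with DESeq2 (0.071) and without any 1 of 9 libraries (-1.88 to -1.21, adjusted p 0.0513 to 0.304). These were Col-0 16 °C replicate 2, 23 °C replicates 1, 2 and 3 and 27 °C replicate 1, and IP-Svi-0 10 °C replicates 2 and 3 and 23 °C replicates 1 and 3.

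In Col-0 at 10 against 23 °C, edgeR called 0 of the 7 members, with 1 (RS5) at an unadjusted p under 0.05, and DESeq2 also called 0, where 6.69% of all tested genes were called. No member was called by either tool at 16 or 27 °C against 23 °C in either accession. At an unadjusted p under 0.05 Col-0 had 1 and 1 and IP-Svi-0 had 2 and 1, and 1.23%, 0.109%, 0.792% and 0% of all tested genes were called in these comparisons. The difference between the accessions' responses to 10 °C was called by edgeR for 0 of 7 members, with 2 (P5CS2 and SPS4F) at an unadjusted p under 0.05, and by DESeq2 for 1, where edgeR called 5.45% of all tested genes. At 16 and 27 °C it was called for 0 members by both tools, with 1 and 0 at an unadjusted p under 0.05, and edgeR called 0% of all genes. All comparisons against 23 °C within an accession share its 23 °C libraries, and the accession differences at 10 and 23 °C share libraries with both.

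**Figure D4:**
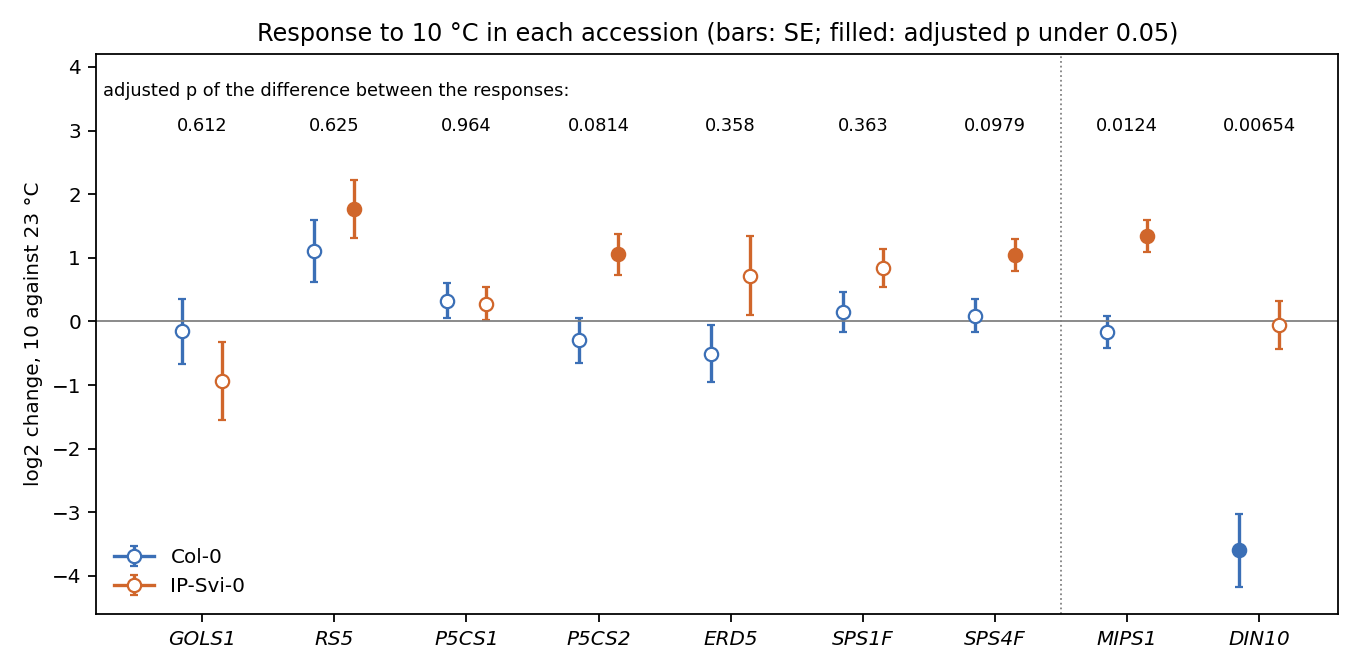
Fitted log2 change at 10 against 23 °C (y axis) in Col-0 (blue) and IP-Svi-0 (orange) for the 7 tested genes and for MIPS1 and DIN10 (x axis), with SE bars, filled where the adjusted p was under 0.05, and with the adjusted p of the difference between the accessions' responses above. That p is 0.0124 for MIPS1 and 0.00654 for DIN10 and above 0.05 for each of the 7.

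Among 12 genes for transcription factors known to act on these pathways, only ICE1 and DREB2A passed the filter. CBF1, CBF2 and CBF3, the cold-induced activators that bind CCGAC, had 7, 8 and 12 counts over all 24 libraries, and the 4 bZIP genes listed, whose products are known to act on ERD5 through ACTCAT, were at 0 in every library. The counted strand is not given and depth was low, so these counts do not show that the genes were not expressed. DREB2A, a drought and heat activator that binds the same core as the CBFs, was higher in IP-Svi-0 over all temperatures by 1.80 (log2, SE 0.273, adjusted p 1.63e-06), at 10 °C by 2.57 (adjusted p 0.00571) and at 23 °C by 2.85 (adjusted p 9.85e-05). It had 3, 8, 8 and 31 counts in Col-0 from 10 to 27 °C and 34, 34, 41 and 56 in IP-Svi-0, and 73 of its exon bases lie opposite AT5G05420.

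Over the 24 libraries the members varied together to different degrees. These correlations of log2 CPM share library depth and the 8 groups and are given as a description. The closest pair was SPS1F and SPS4F (r = 0.75), followed by RS5 with SPS1F (r = 0.73). GOLS1 with SPS4F (r = -0.55) and P5CS1 with ERD5 (r = -0.51) were the most opposed. Outside the 9 genes, among 6750 genes averaging at least 20 CPM, SPS4F was most like AT3G24190 (r = 0.93) and PMDH2 (r = 0.92), and SPS1F most like CAD9 (r = 0.90) and PPL1 (r = 0.87). RS5 was most like AT2G37220 and CEV1 (both r = 0.87), P5CS1 most like CIPK15 (r = 0.82) and G-TMT (r = 0.82), and P5CS2 most like RAP74 and AT5G42740 (both r = 0.84). ERD5 was most like AT1G47530 (r = 0.76) and AT1G80760 (r = 0.74), and GOLS1 most like AT4G24380 (r = 0.73) and PUP16 (r = 0.68), the lowest values of the 7.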

How the data were processed

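Per the labels, a strand-specific kit was used. Per the submitters' processing notes, FastQC, HISAT2, HTSeq, Cufflinks and Cuffdiff were used with TAIR10, and no versions are given. The authors deposited raw read counts for 33602 genes in 24 libraries. Lines that name no gene (reads without a feature were 59.6 to 89.8%) were left out of library sizes. Library totals at genes were 338784 to 870567.

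The members and gene lists were chosen with earlier results of these data known. Named genes are all members, the called genes of each list with the 2 largest changes in each direction, the 2 genes most like each tested member, and others to complete small counts. Several list genes not named by that rule are given only as counts.

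Genes were kept by filterByExpr (minimum count 10), scaled with TMM and fitted with edgeR 4.0.16 (limma 3.58.1, R 4.3.3) with its quasi-likelihood test, all 8 groups and 24 libraries in 1 model. SE is the log2 difference over the root of its F. Adjusted p-values are Benjamini-Hochberg over 10097 genes, in 14 comparisons. CPM use the effective library sizes. The fit was tested on simulated data. Alternatives were DESeq2 1.42.0, DESeq2 size factors in edgeR, a replicate block, other filters, the overlap share as covariate, organelle genes left out, the groups of a comparison alone, and each library left out. Gene positions, exon lengths, overlaps and upstream sequences come from RefSeq TAIR10.1, in which 767 gene IDs were not matched. Floors cover counting error only.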

Additional observations from a re-analysis of the deposited data

Results flagged for a closer look

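The responses of the accessions to 10 °C differed by a test of the difference itself for MIPS1 and DIN10, the genes for inositol phosphate synthesis and for a raffinose synthase family member. The change of MIPS1 at 10 against 23 °C was higher in IP-Svi-0 than in Col-0 by 1.51 (log2, SE 0.348), with an adjusted p of 0.0124 in edgeR's quasi-likelihood test. For DIN10 the difference between the changes was 3.54 (SE 0.707, adjusted p 0.00654), with 9, 0 and 1 counts in the Col-0 libraries at 10 °C. These 2 genes were among 10 tested of the raffinose pathway list. Of all 10097 tested genes 144 were called higher in this comparison and 5.45% in either direction. With the covariate the calls over all genes went from 550 to 34. When the share of counts at genes with no opposite-strand exon entered as a covariate, the differences were 1.35 (adjusted p 0.0508) and 3.26 (adjusted p 0.061), so neither was called. That share had a mean of 39.1% in Col-0 at 10 °C and of 48.6% in IP-Svi-0 at 10 °C.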

How the results depend on the processing

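No member changed direction where it was called, in any alternative fit. The covariate left 1 member called at 10 °C, 0 at 16 °C, 3 over all temperatures and 1 for IP-Svi-0 at 10 against 23 °C, in place of 2, 1, 6 and 3. A filter of 1 CPM gave 4 at 10 °C (adding GOLS2 and SPS1F), 2 at 16 °C and 1 (GOLS2) for Col-0 at 10 against 23 °C, as no filter did for the last. The groups alone and DESeq2 gave 0 at 16 °C, and DESeq2 gave 1 for the difference between responses to 10 °C. Without 1 library the count at 10 °C ranged from 2 to 3, that at 16 °C from 0 to 2, those at 23 and 27 °C from 0 to 1 each, and it was 4 to 7 over all temperatures, 2 to 4 for IP-Svi-0 at 10 against 23 °C and 0 to 1 for the difference between responses to 10 °C, and 0 in the other comparisons.

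The replicate block changed no member's call (2 called at 10 °C and 6 over all temperatures). Same-numbered libraries correlated in their deviations with a median of 0.03 over 84 pairs (-0.341 to 0.292). Over 168 pairs of different number the median was -0.008 (-0.315 to 0.339). Of 24 libraries 13 correlated best with their own number, which does not settle whether the numbers pair libraries. The numbers were not taken as pairs because they are not stated to pair libraries.

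Counts over all genes moved more than 1.5 times in these cases. The covariate gave 1054 for 2422 at 10 °C and 34 for 550 in the responses to 10 °C, and the groups alone 440 for 830 at 16 °C. For Col-0 at 16 against 23 °C, no filter gave 225 and 1 CPM 220 for 124. For Col-0 at 27 against 23 °C, 11 became 37, 39, 34, 17, 38 and 4 with no filter, 1 CPM, the covariate, no organelle genes, the groups alone and DESeq2. For IP-Svi-0 at 16 against 23 °C, 80 became 134, 143, 49, 35 and 134 with no filter, 1 CPM, the covariate, the groups alone and DESeq2. For IP-Svi-0 at 27 against 23 °C, 0 (681 at an unadjusted p under 0.05) became 1 with DESeq2 size factors, 3 with the block and 18, 19, 14, 5, 26 and 12 with the same 6 settings as for Col-0. For the responses to 16 °C, 0 (1287 unadjusted) became 3 with the block and 65, 70, 1, 4 and 1 with no filter, 1 CPM, the covariate, no organelle genes and DESeq2. For those to 27 °C, 0 (377 unadjusted) became 13 with either filter. Without 1 library the ranges were 520 to 998 for 830 at 16 °C, 352 to 829 for 675, 52 to 172 for 124 and 5 to 21 for 11 in Col-0 at 10, 16 and 27 against 23 °C, 843 to 1809 for 1591, 24 to 129 for 80 and 0 to 5 for 0 in IP-Svi-0, and 88 to 897 for 550, 0 to 13 and 0 to 3 for the responses. The cause was not tested. Depth limits GOLS1, GOLS2, GOLS3, RS5 and ERD5, with 13 to 271 counts each over all libraries.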
